A study of Mus musculus with 36 samples.

Results

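Vesicle trafficking genes are described here in whole newborn brain (postnatal day 0.5) of 3 mouse lines, by the brightest detected array probe of each gene. They are 82 of the 4147 named genes that had a detected probe. Membership was decided by the symbol of the gene, which had to begin with Rab, Arf, Arl, Vps, Snx, Stx, Vamp, Syt, Snap, Stxbp, Exoc, Ap1, Ap2, Ap3, Cop, Sec or Trappc, by a role in membrane traffic, and by a place on an autosome other than chromosome 10. A probe had to have a deposited detection score above 0.99 in at least 6 of 18 arrays. The arrays held 140 genes with such a symbol. Of these, 82 were members, 34 had no probe detected in 6 arrays, 15 do not act in membrane traffic by the rule (such as the COP9 signalosome genes Cops2 and Cops4), and 9 lay on chromosome 10, X or Y. No difference between the lines was used to choose them.

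The lines were A/J and B6, both inbred strains, and a C10 congenic line that the series text calls A.B6chr10, which by the usual naming reads as chromosome 10 material of B6 on an A/J background. How much of the chromosome was exchanged is not stated in the labels or the series text, and no allele other than the strain background is labelled. Each line gave 6 whole brains, each hybridised by itself to an Illumina Sentrix Mouse-6 array, with no treatment named. All members lie outside chromosome 10. The series addresses Rnf41, anxiety-like behaviour, depression and seizures, per its title, and the comparisons below ask which trafficking genes differ between the lines in newborn brain.

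Membrane vesicles carry proteins and lipids between the endoplasmic reticulum, the Golgi apparatus, endosomes, lysosomes and the plasma membrane. Coats (COPI, COPII and clathrin with its adaptors) bud vesicles and select cargo, Rab and Arf family GTPases mark membranes and recruit effectors, tethering complexes hold an arriving vesicle to its target, and SNARE proteins fuse the membranes. In neurons the same machinery supplies growing axons and dendrites with membrane and drives the release and recycling of synaptic vesicles.

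The members were broadly detected, with 67 of 82 above the detection score in all 18 arrays. They lay on 18 chromosomes, and 76 of them had 1 kept probe. The least detected members were Rabepk, in 6 arrays (3 A/J, 0 B6 and 3 C10 congenic), and Arl5c, in 7 (4, 0 and 3). Just outside the limit lay Trappc11 and Vps13a, each in 5 arrays. The probe of the neuronal SNARE gene Snap25 was detected in 0 of 18 arrays although that gene is a standard neuronal marker, so an undetected probe is not taken here as a silent gene.

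Between 14410 and 15733 of 46116 probes per array were detected, and array pairs correlated with r from 0.946 to 0.982 across probes. A/J brain 6 stood apart in sex-linked genes, with a signal of 7077 for Xist against at most 23.0 in the other 17 brains and signals below 0 for Eif2s3y and Kdm5d. C10 congenic brain 3 lay farthest from its line in expression. Its root mean square deviation on the log2 scale over all named genes was 0.446, against 0.137 to 0.319 for the other brains. Over the members it was 0.278, close to the highest of the others (0.112 to 0.274). Neuronal markers had summed signals of 32170 to 39390 in A/J, 32607 to 38816 in B6 and 34321 to 39407 in C10 congenic brains. Most of each sum was Gap43. The sums took in the 6 of 7 listed genes on the array, of which 5 were detected and Snap25 was not. Of those genes Rbfox3 was called in B6 minus A/J (limma, adjusted p 0.0428), at 3506 to 6085 in A/J and 5186 to 6858 in B6, and its part in the results was not tested. Red blood cell markers, 3 of 5 listed genes, summed to 33787 to 53024, 9353 to 23232 and 24068 to 50783 in the same order, so that the B6 range lay below both others. The 3 genes did not move alike. Hbb-b2 and Hba-a1 were lower in B6 than in the other lines, whereas Hbb-b1 was higher, at 1010 to 2126 in B6 against 97.4 to 218.1 in A/J and 99.9 to 209.2 in C10 congenic brains. Their part in the results below was not tested. Gfap and Olig2 were undetected. Microglial markers (2 of 4) summed to 473 to 559, 330 to 534 and 438 to 795, and of them Csf1r was lower in B6 than in C10 congenic brains (105.8 to 269.4 against 287.6 to 568.5, limma, adjusted p 0.0112), which was likewise not tested against the results below.

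Of the 7 members that differed in both comparisons with B6, 6 have an entry in the RefSeq promoter table (build GRCm38.p6) and Rab26 is named only. The 4 promoters below belong to those of the 6 that stayed called in both comparisons whichever brain was left out, and are shown so that the sequence at their starts can be compared. Each run is the 250 bases before the gene's start, 5′ to 3′ on the gene's strand, which is the minus strand for all 4, and capitals mark the GC box (GGGCGG or CCGCCC) and the CCAAT box (CCAAT or ATTGG), each searched on both strands. Arl5a is at chr2:52424875-52425124, Trappc12 at chr12:28750401-28750650, Sec22c at chr9:121705030-121705279 and Exoc8 at chr8:124897706-124897955.
Arl5a: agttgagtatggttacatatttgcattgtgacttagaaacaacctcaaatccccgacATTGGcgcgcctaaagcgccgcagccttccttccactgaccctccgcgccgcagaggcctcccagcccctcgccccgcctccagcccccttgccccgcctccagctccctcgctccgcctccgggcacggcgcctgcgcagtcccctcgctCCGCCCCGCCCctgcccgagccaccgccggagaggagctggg
Trappc12: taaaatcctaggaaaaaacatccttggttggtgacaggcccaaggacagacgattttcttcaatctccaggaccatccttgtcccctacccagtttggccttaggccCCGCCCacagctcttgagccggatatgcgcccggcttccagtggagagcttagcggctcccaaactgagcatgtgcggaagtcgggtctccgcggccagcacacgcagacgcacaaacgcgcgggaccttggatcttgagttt
Sec22c: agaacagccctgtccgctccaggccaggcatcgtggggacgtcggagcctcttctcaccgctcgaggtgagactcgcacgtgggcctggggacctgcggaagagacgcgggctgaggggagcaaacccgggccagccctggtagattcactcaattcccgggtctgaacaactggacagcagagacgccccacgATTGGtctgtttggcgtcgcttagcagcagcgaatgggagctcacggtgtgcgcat
Exoc8: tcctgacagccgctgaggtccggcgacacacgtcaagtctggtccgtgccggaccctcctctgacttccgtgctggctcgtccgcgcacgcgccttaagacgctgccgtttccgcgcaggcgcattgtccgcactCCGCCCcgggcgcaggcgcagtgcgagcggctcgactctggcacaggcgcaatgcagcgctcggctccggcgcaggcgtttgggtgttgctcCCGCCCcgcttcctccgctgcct
The Arl5a run held 2 GC box matches, which overlap, and 1 CCAAT box. Trappc12 had 1 GC box, Sec22c 1 CCAAT box and Exoc8 2 GC boxes. Over all 32851 promoters of that length in the table, 32.7% held a GC box and 33.8% a CCAAT box. Among the 83 promoters of the 69 members with an entry, 55 (66.3%) held a GC box and 30 (36.1%) a CCAAT box, and the cyclic AMP response element TGACGTCA was in 3 (3.6%, against 1.5% of all). Median GC content was 61.2% for the members and 52.4% for all promoters. The set of all promoters was not filtered on gene type or on detection in brain, whereas the members are protein-coding genes with a detected probe. The sets thus differ in more than a role in membrane traffic, and these gaps were not tested as a trait of the members. These are matches of letters in the reference strain C57BL/6J. The A/J sequence of these windows was not used here.

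Between B6 and A/J, 13 of 82 members (15.9%) differed at an adjusted p under 0.05 (limma, Benjamini-Hochberg over all 15892 kept probes), against 15.3% of all named genes. The members were therefore called at about the rate of the array as a whole. Of the 13, 8 were higher in B6 (Arl5a, Vps18, Exoc8, Sec22c, Ap2b1, Trappc13, Rab11a and Copa) and 5 lower (Trappc12, Exoc7, Rab26, Snx30 and Syt6). That is 9.76% and 6.10% of the members, against 7.31% and 7.96% of all named genes. At an unadjusted p under 0.05, 21 members (25.6%) differed, against 27.2%. Between C10 congenic and B6 brains, 7 members (8.54%) were called, against 10.4% of all named genes. In C10 congenic brain Trappc12, Rab26 and Snx30 were higher than in B6 (3 members, 3.66% against 4.03%), and Arl5a, Sec22c, Exoc8 and Copa lower (4 members, 4.88% against 6.34%). At an unadjusted p under 0.05, 15 members (18.3%) differed, against 21.3%. Against A/J brain, C10 congenic brain had 0 members called by limma, against 0.844% of all named genes (0.265% higher and 0.579% lower), and 18 members (9 higher, 9 lower) at an unadjusted p under 0.05, which is 22% against 15.2%. Arl5a and Syt6 are among 6 members that passed the detection limit only through the line in which they were brightest, so their share in these counts follows in part from the filter. The 3 comparisons share their brains in pairs and are not independent of each other.

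**Figure D1:**
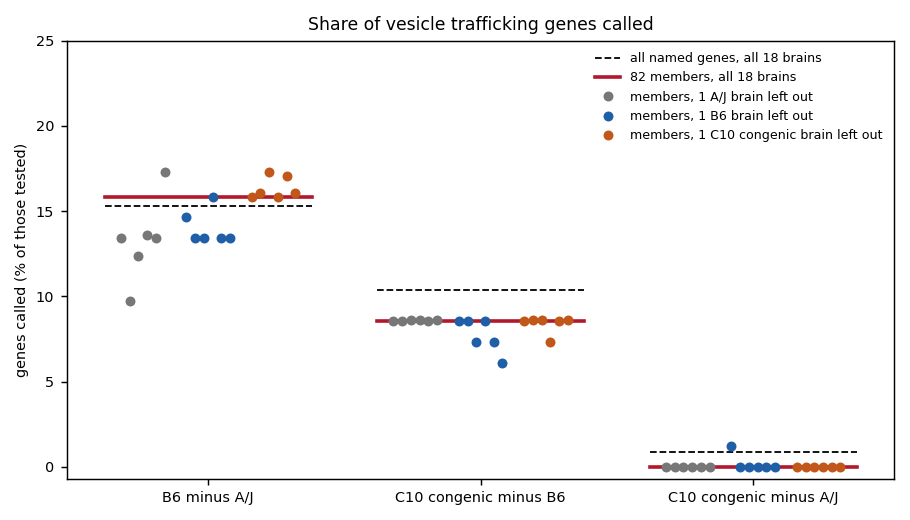
Share of genes called different (percent of those tested, adjusted p under 0.05) in each comparison of 2 lines. Red lines give the 82 members in all 18 brains (15.9%, 8.54% and 0%), dashed lines all named genes (15.3%, 10.4% and 0.844%), and points the members with 1 brain left out, coloured by the line of that brain.

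The count of 13 in B6 against A/J was 7 when probes were not filtered on detection and 8 without A/J brain 2. Without A/J brain 6 it was 14, and without C10 congenic brain 3 it was also 14. These counts are given without the share of all named genes called in the same fits, so they describe the fits and not the members alone. In bulk tissue such as whole brain, fewer cells of a type and less RNA per cell cannot be told apart, and a strain variant under a probe can alter its signal, which was not tested.

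Most members differed little. Median log2 differences of the members were -0.02 in B6 minus A/J, -0.02 in C10 congenic minus B6 and -0.05 in C10 congenic minus A/J, beside -0.03, -0.01 and -0.04 for all named genes. Median sizes, sign left aside, were 0.13, 0.12 and 0.14 for the members and 0.15, 0.13 and 0.12 for all. The within-line SD on the log2 scale, pooled over the lines for each gene, had a median of 0.20 over the members (range 0.12 to 0.31). Over all named genes the median was 0.21. A difference of 1 log2 unit or more was seen in 1 of 82 members, Arl5a, in both comparisons with B6. It was seen in 83 of the 4147 named genes for B6 minus A/J and 93 for C10 congenic minus B6. In C10 congenic minus A/J all 82 members stayed under 0.5, as did 98.3% of all named genes.

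**Figure D2:**
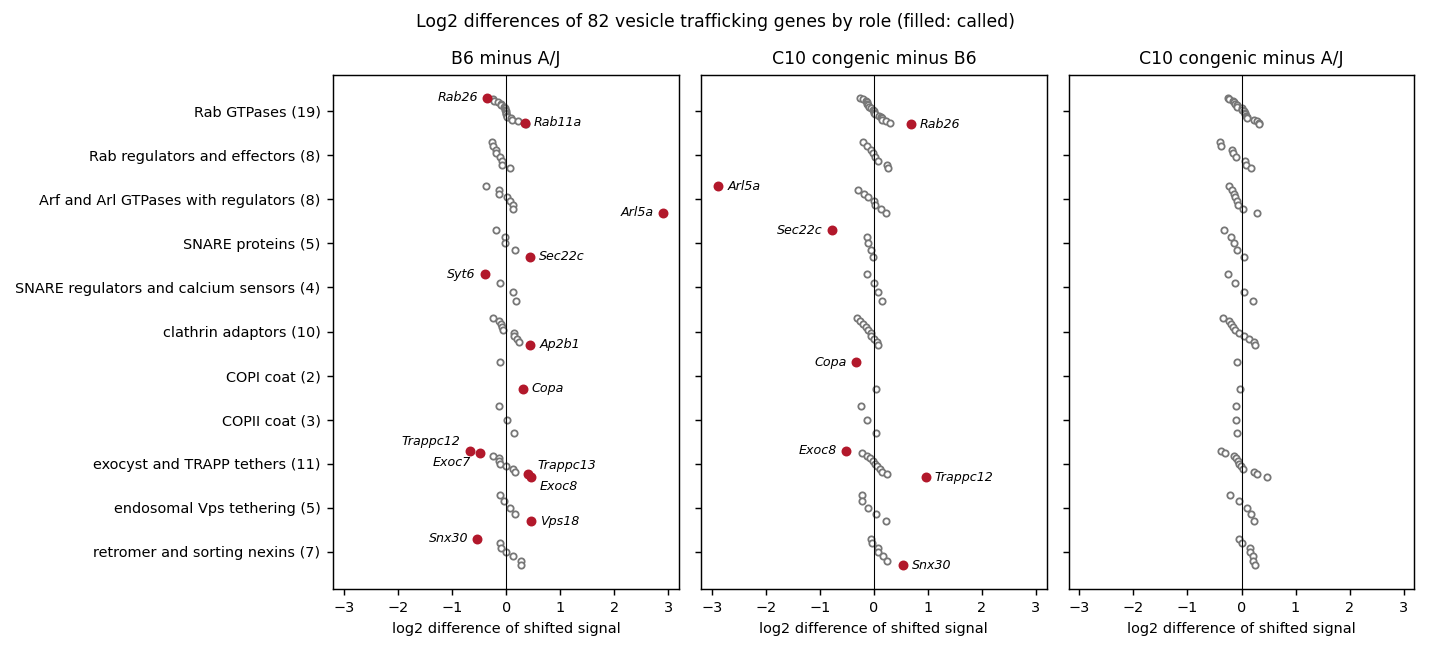
Log2 difference of shifted signal for the 82 members in the 3 comparisons, with genes grouped by role and the number of members in brackets. Filled points are called and named. Arl5a stands at 2.91 in B6 minus A/J and at -2.88 in C10 congenic minus B6, and no point is filled in C10 congenic minus A/J.

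Among the 19 Rab GTPases, the switches that give each membrane compartment its identity, 1 was higher and 1 lower in B6 than in A/J. That is 5.26% in each direction, against 7.31% and 7.96% of all named genes. Rab26, a Rab of secretory and synaptic vesicles, had signals with a low of 243, a median of 284.3 and a high of 348.7 in A/J brains. In B6 these were 181.9, 212 and 231.9, and in C10 congenic brains 327.6, 384.4 and 425.3. Every B6 brain lay below every brain of the other lines, while A/J and C10 congenic brains overlapped. The log2 difference of Rab26 was -0.36 (SE 0.09, adjusted p 0.00807) in B6 minus A/J and 0.69 (SE 0.09, adjusted p 4.89e-06) in C10 congenic minus B6. For C10 congenic minus A/J it was 0.33 with an adjusted p of 0.0796. Rab26 stayed called in both comparisons in each of the 18 fits that left out 1 brain.

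Rab11a, the GTPase of recycling endosomes, ran from 932.3 through a median of 1066 to 1211.1 in A/J, from 1041.2 through 1384.2 to 1644.3 in B6 and from 1144.1 through 1261.4 to 1615.1 in C10 congenic brains. The B6 median was above the highest A/J brain, but the ranges overlapped. The log2 difference was 0.34 in B6 minus A/J (SE 0.11, adjusted p 0.0359), and the call was lost in 6 of 18 fits that left out 1 brain (A/J brain 2, 3 or 4, or B6 brain 4, 5 or 6) and without the detection filter. Its relative Rab11b, at 17479 ± 1764, 15979 ± 1646 and 17860 ± 1323 (mean ± SD, n = 6 each, in the order A/J, B6, C10 congenic), had a log2 difference of -0.10 there with an adjusted p of 0.554. Rab6b, a Golgi Rab enriched in neurons, was 6062 ± 964 in A/J, 7711 ± 544 in B6 and 7264 ± 1732 in C10 congenic brains. All B6 brains exceeded all A/J brains for Rab6b, yet its log2 difference of 0.36 (SE 0.14) had an adjusted p of 0.0778, and it was called without C10 congenic brain 3 (adjusted p 0.0499) and with only the 2 lines in the fit (0.0354).

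None of the 8 Rab regulators and effectors was called by limma in any comparison. At an unadjusted p under 0.05 there were 1, 0 and 2 in B6 minus A/J, C10 congenic minus B6 and C10 congenic minus A/J. Of all named genes, 15.3%, 10.4% and 0.844% were called in that order, and 27.2%, 21.3% and 15.2% had such an unadjusted p. Log2 differences of the 8 genes in B6 minus A/J ran from -0.27 (Rab3il1) to 0.06 (Rabep1). Rabgap1, a GTPase-activating protein, had mean signals of 6641 ± 459 in A/J, 5855 ± 1137 in B6 and 6985 ± 909 in C10 congenic brains. Rabac1, a prenylated Rab acceptor of the Golgi, had 2688 ± 55.7, 2565 ± 718 and 2427 ± 324. Rab3gap2, the non-catalytic subunit of the Rab3 GTPase-activating complex, was lower in all B6 than in all A/J brains at 616 ± 94.3 against 736 ± 28.3, with an adjusted p of 0.0944.

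The Arf and Arl GTPases recruit coats and effectors to membranes, and 1 of the 8 genes of this group differed between lines. Arl5a, an Arf-like GTPase of the trans-Golgi network on chromosome 2, had by far the widest gap of the members. In A/J its signal had a low of 43.7, a median of 62.2 and a high of 116.3, and the probe was detected in 2 of 6 brains. In C10 congenic brains the values were 55.3, 68.9 and 94.3, again with 2 of 6 detected. In B6 they were 851.8, 991.9 and 1167.9, detected in all 6. The B6 brains formed a group of their own, far above the overlapping ranges of the other lines. The log2 difference was 2.91 in B6 minus A/J (SE 0.11, adjusted p 1.19e-15) and -2.88 in C10 congenic minus B6 (SE 0.11, adjusted p 1.38e-15), whereas C10 congenic minus A/J was 0.03 (adjusted p 0.93). The probe passed the detection limit through B6, since the other lines gave 4 detected arrays together, and the values of those lines lie near background. When each brain was left out in turn, the log2 difference stayed between 2.85 and 2.99 for B6 minus A/J and between -2.92 and -2.84 for C10 congenic minus B6.

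Its closest relative by name, Arl5c, pointed the other way without passing the test, at 99.7 ± 24.2 in A/J, 58.7 ± 10.8 in B6 and 77.4 ± 47.0 in C10 congenic brains, with a log2 difference of -0.38 in B6 minus A/J (adjusted p 0.092). Arf5, a small GTPase of the early secretory pathway, had means of 2364 ± 432, 2580 ± 404 and 2090 ± 341. Arl8b, which couples lysosomes to kinesin, had means of 1184 ± 92.7, 1298 ± 92.5 and 1138 ± 137. Neither was called in any comparison, with log2 differences of 0.13 for both in B6 minus A/J.

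**Figure D3:**
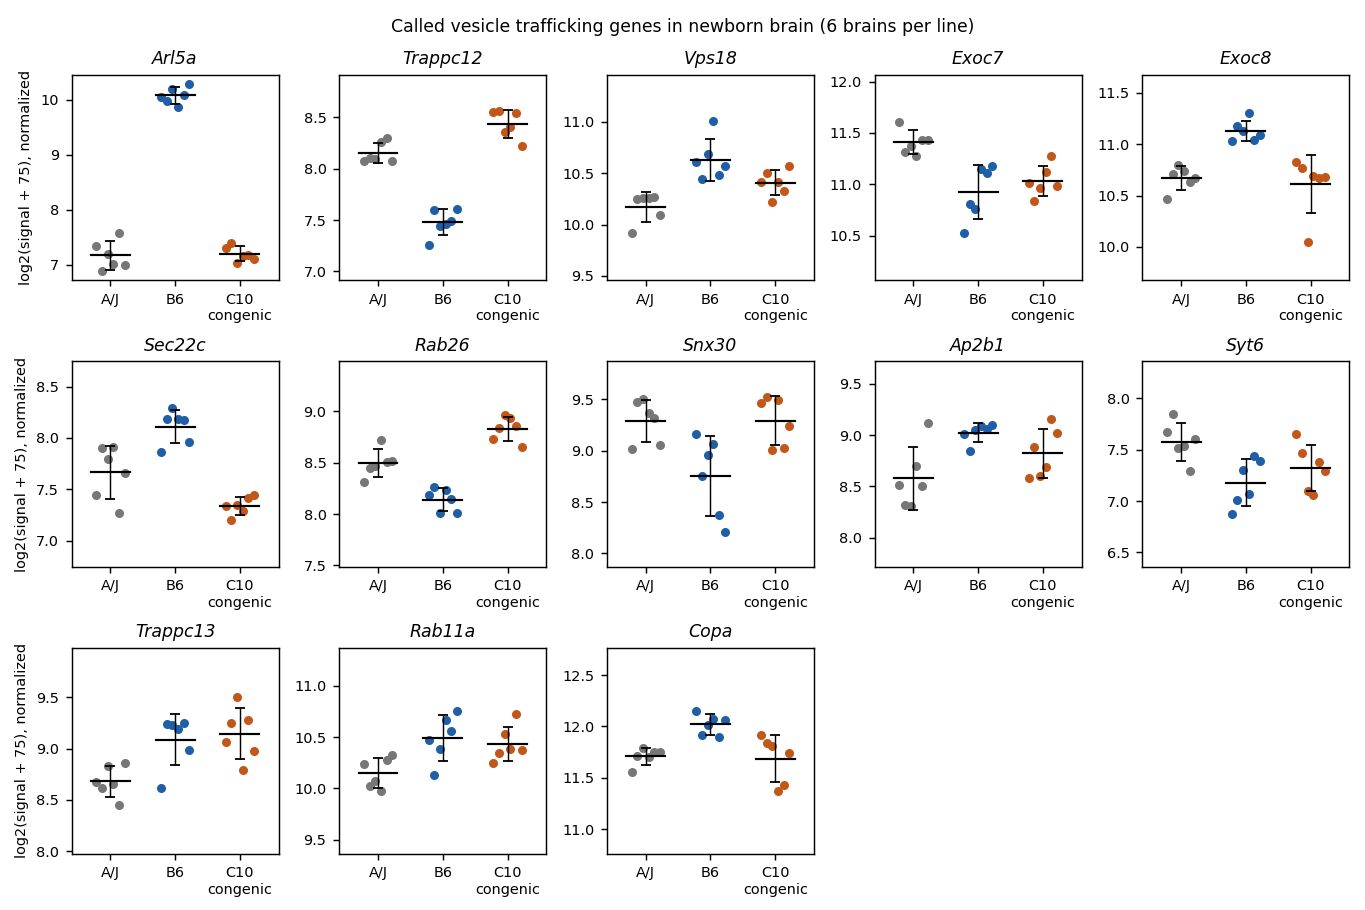
Normalized log2(signal + 75) of the 13 called members in each of the 18 brains, 1 panel per gene with its own axis. Points are brains, horizontal bars are the mean of the 6 brains of a line and error bars the SD. In the Arl5a panel the 6 B6 brains stand far above the other 12.

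In the SNARE group, formed by symbol, 1 of 5 genes was called in both comparisons with B6. That is 20% in each, against 15.3% of all named genes in B6 minus A/J and 10.4% in C10 congenic minus B6. SNARE proteins fuse vesicles with their targets, but the gene that differed, Sec22c, encodes an endoplasmic reticulum protein of the Sec22 family that lacks a typical SNARE motif, and the other 4 genes were not called. Sec22c had a low of 79.4, a median of 137.7 and a high of 165.9 in A/J (5 of 6 brains detected). The B6 values were 157.8, 214.8 and 238.1 (all detected) and the C10 congenic values 72.3, 87.3 and 98.9 (2 of 6 detected). The signal was highest in B6, where every brain exceeded every C10 congenic brain, while the A/J range met both others. Log2 differences were 0.45 in B6 minus A/J (SE 0.11, adjusted p 0.00662) and -0.77 in C10 congenic minus B6 (SE 0.11, adjusted p 1.64e-05), and -0.33 in C10 congenic minus A/J (adjusted p 0.155). Both calls held in each of the 18 fits that left out 1 brain. The endosomal syntaxins Stx6 and Stx8 had B6 minus A/J log2 differences of 0.16 (adjusted p 0.505) and -0.02 (adjusted p 0.916), with means of 421 ± 35.8, 480 ± 63.3 and 457 ± 143 for Stx6 and of 2119 ± 180, 2088 ± 226 and 2012 ± 219 for Stx8.

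SNARE regulators and calcium sensors had 1 called member of 4, in B6 minus A/J (25%, against 15.3% of all named genes). Syt6, a synaptotagmin, was dim, with a low, median and high of 81.6, 114.9 and 155.5 in A/J (5 of 6 brains detected), 42.3, 70.9 and 99.1 in B6 (1 detected) and 58.7, 86.8 and 126 in C10 congenic brains (2 detected), so that it passed the detection limit through A/J. The A/J brains were the brightest as a group, with overlap between all 3 lines. Its log2 difference was -0.40 in B6 minus A/J (SE 0.12, adjusted p 0.0266), a call lost without A/J brain 1 or 2, without B6 brain 1 or 2, with a larger shift of 200 before the log, and without the detection filter. Syt4, a synaptotagmin of dense-core vesicles, had 8000 ± 495, 7273 ± 645 and 7514 ± 1358 and was not called (adjusted p 0.533 in B6 minus A/J).

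Clathrin adaptors link cargo to the clathrin coat, and 1 of the 10 was called, in B6 minus A/J (10%, against 15.3% of all named genes). Ap2b1, the beta subunit of the AP2 adaptor of endocytosis, had a low of 242.7, a median of 290.3 and a high of 482.7 in A/J, against 383.1, 455.1 and 471.9 in B6 and 307.7, 367.3 and 497.5 in C10 congenic brains. One A/J brain was as bright as the B6 group and the other 5 lay below it. The log2 difference was 0.45 in B6 minus A/J (SE 0.13, adjusted p 0.0178), and the call was lost without A/J brain 2 or 3 and without the detection filter. The other AP2 subunits did not pass the test. Ap2a1, Ap2m1 and Ap2s1 had log2 differences of -0.10, 0.15 and -0.08 in B6 minus A/J. Ap2a1 was nevertheless lower in all C10 congenic brains (396 ± 21.8) than in all A/J brains (540 ± 180), at a log2 difference of -0.34 and an adjusted p of 0.285. A/J brain 1, at 905.3 against 434.6 to 486.6 in the other A/J brains, set much of that difference, which was -0.20 in the means without it. Ap2s1 means were 6074 ± 670, 5745 ± 839 and 5225 ± 899. Ap3s1, the sigma subunit of the endosomal AP3 adaptor, had 3909 ± 520, 3752 ± 538 and 3617 ± 707.

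The COPI coat returns proteins from the Golgi to the endoplasmic reticulum, and 1 of its 2 measured subunits was called in both comparisons with B6. Of all named genes, 15.3% were called in B6 minus A/J and 10.4% in C10 congenic minus B6. Copa, the alpha subunit, had signals with a low, median and high of 2915, 3328.3 and 3467.8 in A/J, 3734.3, 4118.6 and 4446.5 in B6 and 2579.2, 3433.7 and 3782.1 in C10 congenic brains. All B6 brains exceeded all A/J brains, and the C10 congenic range reached from below A/J into the lower end of B6. Log2 differences were 0.31 in B6 minus A/J (SE 0.10, adjusted p 0.0367) and -0.33 in C10 congenic minus B6 (SE 0.10, adjusted p 0.0298). The first call was lost in 9 of 18 fits that left out 1 brain (A/J brain 1, 2, 3, 4 or 5, or B6 brain 1, 3, 4 or 6) and the second in 6 (B6 brain 1, 3, 4 or 6, or C10 congenic brain 4 or 5). Both were also lost without the detection filter, and the second with only the 2 lines in the fit. Cope, the epsilon subunit, had a log2 difference of -0.12 in B6 minus A/J (adjusted p 0.498), with means of 2207 ± 312, 2015 ± 275 and 2064 ± 175, and its 2 dimmer probes, at -0.06 and 0.04, were not called.

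No COPII gene of 3 passed the test by limma in any comparison, and 1 (Sec23a, in C10 congenic minus B6) had an unadjusted p under 0.05. Of all named genes, 15.3%, 10.4% and 0.844% were called in B6 minus A/J, C10 congenic minus B6 and C10 congenic minus A/J. An unadjusted p under 0.05 was seen in 21.3% of them in C10 congenic minus B6. COPII buds vesicles from the endoplasmic reticulum. Sec16a, its scaffold at exit sites, had 1366 ± 67.8 in A/J, 1252 ± 208 in B6 and 1288 ± 173 in C10 congenic brains. Sec24b, a cargo-binding subunit, had 1050 ± 55.5, 1066 ± 117 and 982 ± 154. Over the 3 genes, log2 differences lay between -0.13 and 0.14 in B6 minus A/J and between -0.24 and 0.04 in C10 congenic minus B6.

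The exocyst and TRAPP tethers held 4 called members of 11 in B6 minus A/J (36.4%, against 15.3% of all named genes), 2 higher and 2 lower in B6 (18.2% each, against 7.31% and 7.96%). With 11 genes this is a description of the group and was given no test. The exocyst ties secretory vesicles to the plasma membrane. Its subunit Exoc8 (Exo84) had a low of 1339.8, a median of 1578.8 and a high of 1707.8 in A/J, against 2006.3, 2131.2 and 2442.3 in B6 and 987.3, 1574.3 and 1747.2 in C10 congenic brains. All B6 brains lay above all brains of both other lines, whose medians nearly coincided. Its log2 difference was 0.46 in B6 minus A/J (SE 0.11, adjusted p 0.00547) and -0.52 in C10 congenic minus B6 (SE 0.11, adjusted p 0.00231). The second was smallest, at -0.40, in the fit without C10 congenic brain 3, which held the low value of 987.3, and it was still called.

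Exoc7 (Exo70), the subunit that binds phosphoinositides at the plasma membrane, went the other way. Its low, median and high were 2408.6, 2625.7 and 3043.6 in A/J, 1395.1, 1931 and 2232.3 in B6 and 1752.4, 1977 and 2405.1 in C10 congenic brains. Every A/J brain exceeded every brain of the other lines, although the highest C10 congenic brain came close to the lowest A/J brain. The log2 difference was -0.49 in B6 minus A/J (SE 0.11, adjusted p 0.00359) and -0.38 in C10 congenic minus A/J, where the adjusted p was 0.107. The other exocyst genes measured (Exoc1, Exoc3, Exoc6 and Exoc6b) were not called, with log2 differences from -0.13 to 0.17 in B6 minus A/J. Exoc6b means were 3386 ± 440, 3118 ± 581 and 3446 ± 178.

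TRAPP complexes tether vesicles at the Golgi and act as exchange factors for Rab GTPases. Trappc12 had a low of 195, a median of 200.4 and a high of 239.9 in A/J, 78, 103.1 and 119.9 in B6 (5 of 6 brains detected) and 223.3, 280.6 and 302.7 in C10 congenic brains. B6 brains lay below all others, and A/J and C10 congenic ranges overlapped at their edges. The log2 difference was -0.68 in B6 minus A/J (SE 0.09, adjusted p 6.01e-06) and 0.96 in C10 congenic minus B6 (SE 0.09, adjusted p 2.03e-08), where the deposited means differed 2.64-fold. It was 0.28 in C10 congenic minus A/J (adjusted p 0.127).

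Trappc13 had 273.6, 331.7 and 388.1 in A/J, 315.8, 518.2 and 533.9 in B6 and 368.8, 497.9 and 652.6 in C10 congenic brains. Here A/J was the dim line, and the B6 and C10 congenic brains were alike in range. Log2 differences were 0.41 in B6 minus A/J (SE 0.13, adjusted p 0.0274) and 0.47 in C10 congenic minus A/J (SE 0.13), which gave the smallest adjusted p of any member in that comparison, 0.0723. The second passed the threshold in the fit without B6 brain 1 (adjusted p 0.0309) and in the fit of those 2 lines alone (0.0461). The first was lost without A/J brain 2 or 5 or B6 brain 2, 3 or 5, and without the detection filter. Trappc3, a core subunit, was not called, with means of 3361 ± 87.8, 3104 ± 215 and 3085 ± 535.

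Among 5 endosomal Vps tethering genes, 1 was called, in B6 minus A/J (20%, against 15.3% of all named genes). Vps18, a core subunit shared by the HOPS and CORVET tethers of the endosome and lysosome, had a low of 888.9, a median of 1148 and a high of 1157.3 in A/J, 1318.2, 1460.3 and 1972.6 in B6 and 1117.8, 1294.3 and 1453.8 in C10 congenic brains. All B6 brains exceeded all A/J brains, and the C10 congenic range touched both. The log2 difference was 0.46 in B6 minus A/J (SE 0.10, adjusted p 0.00278) and -0.22 in C10 congenic minus B6 (adjusted p 0.175). The HOPS and CORVET partners measured, Vps39 and Vps8, had B6 minus A/J log2 differences of 0.17 and 0.06 with adjusted p of 0.503 and 0.745. Vps53, a subunit of the GARP tether of the trans-Golgi network, had means of 2772 ± 330, 2704 ± 419 and 3157 ± 427 and was not called.

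Retromer and the sorting nexins retrieve cargo from endosomes, and 1 of the 7 genes was called in both comparisons with B6. That is 14.3% in each, against 15.3% of all named genes in B6 minus A/J and 10.4% in C10 congenic minus B6. Snx30, a sorting nexin of the kind with a BAR domain, had a low of 443.6, a median of 575.4 and a high of 649.2 in A/J, 221.1, 389.1 and 496.9 in B6 and 439.7, 579.9 and 661.7 in C10 congenic brains. B6 was the dim line and spread widely, and its upper brains reached into the other ranges, while A/J and C10 congenic brains were alike. Log2 differences were -0.54 in B6 minus A/J (SE 0.15, adjusted p 0.0153), 0.54 in C10 congenic minus B6 (SE 0.15, adjusted p 0.0185) and 0.00 in C10 congenic minus A/J (adjusted p 0.994). The call against C10 congenic brain was lost without B6 brain 5 or 6, the 2 dimmest, and both Snx30 calls were lost without the detection filter. Snx2, a sorting nexin that works with retromer, had 3472 ± 127, 3211 ± 357 and 3405 ± 476, and Snx11 had 3061 ± 688, 3007 ± 274 and 3359 ± 110. The retromer subunit Vps29, at 2774 ± 468, 3038 ± 572 and 3196 ± 455, had log2 differences between 0.08 and 0.20 in the 3 comparisons and was not called.

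**Figure D4:**
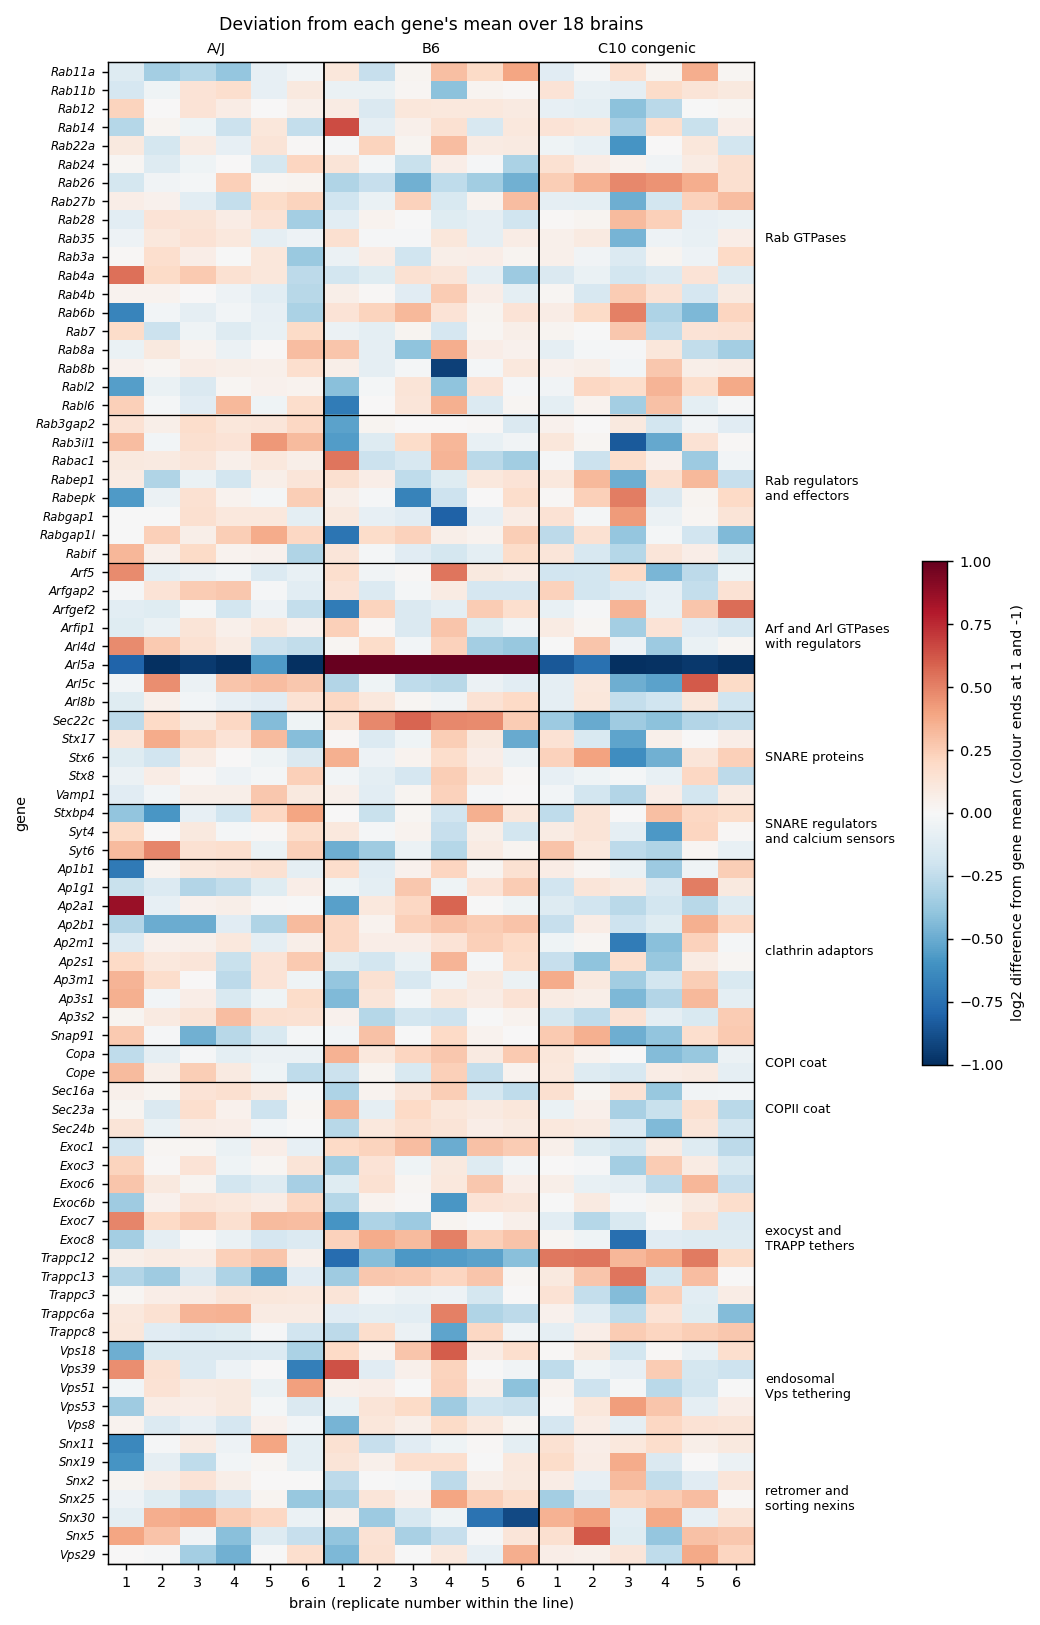
Heat map of log2 deviation from each gene's mean over the 18 brains for 81 members (rows, by role) in each brain (columns, by line), red for higher and blue for lower, with colours ending at 1 and -1. Arl5a, Trappc12, Rab26, Sec22c and Exoc8 form line-wide blocks, and single dark cells stand out in A/J brain 1, B6 brains 1 and 4 and C10 congenic brain 3.

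In B6 minus A/J, 9 members had lines that did not overlap (11%, against 8.63% of all named genes), of which 5 were higher and 4 lower in B6 (6.10% and 4.88%, against 4.32% in either direction). They were Arl5a, Copa, Exoc8, Rab6b and Vps18 above, and Exoc7, Rab26, Rab3gap2 and Trappc12 below. For C10 congenic minus B6 there were 5 (6.10%, against 6.08%), namely Rab26 and Trappc12 above (2.44%, against 2.17%) and Arl5a, Exoc8 and Sec22c below (3.66%, against 3.91%). In C10 congenic minus A/J there were 2 (2.44%, against 1.74%), Ap2a1 and Exoc7, both lower in C10 congenic brain, where 1.3% of all named genes were lower without overlap.

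Each of the 7 members called in C10 congenic minus B6 was also called in B6 minus A/J, with B6 the highest or lowest line by mean signal. B6 did not always stand alone, since the Rab26 mean of A/J (287.7) lay between those of B6 (207.9) and C10 congenic brains (381.2). These comparisons share the B6 brains, so the second list is no independent support for the first. In C10 congenic minus A/J, which does not use those brains as a group, the 7 had log2 differences between -0.33 (Sec22c) and 0.33 (Rab26), none of them called. There were 6 members with more than 1 kept probe, none of them a called gene. Their 9 further probes were not called in any comparison, with sizes of at most 0.24. Some called genes had further probes that failed the detection limit. Arl5a, Rab26, Sec22c and Syt6 had 2 probes each on the array and Ap2b1 had 3, with 1 kept for each gene. The probes that failed were not compared with the kept ones.

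Other genes of membrane traffic, outside the symbols above, gave 36 measured genes of a list of 106. In B6 minus A/J 6 were higher and 1 lower (16.7% and 2.78%, against 7.31% and 7.96% of all named genes). In C10 congenic minus B6 0 were higher and 4 lower (0% and 11.1%, against 4.03% and 6.34%). In C10 congenic minus A/J 0 were called by limma, against 0.844% of all named genes. At an unadjusted p under 0.05 there were 7 of the 36, against 15.2% of all named genes. Gdi2, which extracts inactive Rab GTPases from membranes, had the widest gap among them, at 5539 ± 901 in A/J, 13714 ± 1882 in B6 and 5487 ± 1115 in C10 congenic brains. Its log2 difference was 1.32 in B6 minus A/J (SE 0.14, adjusted p 1.45e-07) and -1.34 in C10 congenic minus B6 (SE 0.14, adjusted p 1.09e-07). Sv2a, a synaptic vesicle protein, was also higher in B6 than in both other lines, at 6914 ± 852 against 4952 ± 253 in A/J and 4588 ± 635 in C10 congenic brains (log2 differences 0.47 and -0.59, adjusted p 0.00204 and 0.000177). Sh3gl2 (endophilin A1, which acts in synaptic vesicle endocytosis) followed at 7828 ± 879 against 5803 ± 459 and 6075 ± 866 (0.43 and -0.38, adjusted p 0.00528 and 0.0173). Vti1a, an endosomal SNARE, Ap5z1, a subunit of the AP5 adaptor, and Itsn1, an endocytic scaffold, were higher in B6 than in A/J by 0.43, 0.46 and 0.40 on the log2 scale. Vipas39, which works with a Vps33 protein in endosomal sorting, was lower there at -0.40. Cplx2, a complexin that acts on the SNARE complex, was lower in C10 congenic than in B6 brains at -0.38. Median log2 differences of the 36 genes were 0.04 in B6 minus A/J, -0.06 in C10 congenic minus B6 and -0.02 in C10 congenic minus A/J.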

How the data were processed

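Whole newborn brains of A/J, B6 and C10 congenic mice, 6 per line and each labelled as whole brain with a replicate number, were used. Groups and replicate numbers come from the sample titles. Adult hippocampus arrays were not used here. The deposited signal is an intensity per probe that the authors background-subtracted (lowest value -59), from BeadStudio per the submitters' processing notes, without a version. Its quartiles were nearly equal across arrays. The deposited detection score is a fraction per probe, per the file headers.

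Digits in probe IDs were read as NCBI Gene IDs, an inference from the IDs, and named through a RefSeq table (GRCm38.p6), which gave names to 9832 of 46116 probes. Another 35748 stayed unnamed and 536 control probes were left out. Signals were shifted by 75, taken to log2 and quantile normalized, and 15892 probes detected above 0.99 in at least 6 of 18 arrays were kept. The shift makes differences of dim genes smaller. A gene was read by its brightest kept probe. limma 3.58.1 in R 4.3.3 (lmFit, eBayes) was fitted over all kept probes with 1 coefficient per line and 18 brains, without a block, and p were adjusted by Benjamini-Hochberg over all of them. Adjusted p under 0.05 is called. The fit was tested on simulated data first. Array number, 6 per line, limits precision.

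Named are all called members and the 2 brightest of each role, and every other member named was chosen after its values were seen. The values of 1 member are not reported here. The members, roles and lists were chosen with earlier results of these data known. Alternatives were another shift, a floor, no normalization, other detection filters, 2 lines in the fit, a replicate block, the mean of a gene's probes, a wider membership and leaving out each brain.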

Additional observations from a re-analysis of the deposited data

Results flagged for a closer look

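Single brains lay far from the other 5 of their line in 10 of 99 tests of the members chosen by the naming rule (33 genes in 3 lines, Dixon's test at the 95% level), of which chance gives about 1 in 20. The brains involved were A/J 1, B6 1, 2 and 4, and C10 congenic 3. In A/J brain 1 the signal was 3236.7 for Arf5 (others 2098.8 to 2280.6), 2915 for Copa (others 3271.2 to 3467.8) and 2535.1 for Exoc6b (others 3387.8 to 3804.8). B6 brain 1 had 2705.1 for Ap3s1 (others 3659.4 to 4108.9) and 833.5 for Sec24b (others 1076.6 to 1154). B6 brain 4 had 3372.2 for Arf5 (others 2261.2 to 2595.4), 12797.1 for Rab11b (others 15791.7 to 17466.2) and 3644.2 for Rabgap1 (others 6000.3 to 6810.9). In B6 brain 2 Ap2b1 was at 383.1 (others 440.5 to 471.9), and in C10 congenic brain 3 Exoc8 was at 987.3 (others 1560.1 to 1747.2).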

How the results depend on the processing

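Over all alternatives, the 33 members chosen by the naming rule gave 2613 values on the same side of the threshold, 44 that lost a call and 4 that gained one. The sign changed in 50 values of 22 differences, none of them called, whose sizes were at most 0.11 before and 0.12 after the change. In C10 congenic minus A/J, where 0 members were called, 1 (Trappc13) was called with only the 2 lines in the fit, and 0 to 1 when a brain was left out (the 1 without B6 brain 1). In C10 congenic minus B6, 4 rather than 7 were called when a probe had to be detected in all 18 arrays, which left 67 members and removed Arl5a, Trappc12 and Sec22c, and 5 to 7 when a brain was left out. In B6 minus A/J, 7 rather than 13 were called without a detection filter, which tests more probes (116 members), and 8 (without A/J brain 2) to 14 when a brain was left out. Same-numbered brains of different lines had deviations that correlated with r between -0.09 and 0.33 (median 0.08 over 18 pairs). For brains of other numbers r lay between -0.325 and 0.356 (median -0.04 over 90 pairs). The ranges overlap and the medians differ a little, so these values do not settle whether the numbers pair the brains. With a replicate block, 0, 7 and 14 members were called in C10 congenic minus A/J, C10 congenic minus B6 and B6 minus A/J. The share of all named genes called moved between these fits too. In C10 congenic minus A/J it was 0.844% in the fit used above. It was higher with a replicate block, with only the 2 lines in the fit and without B6 brain 1. It was lower without a detection filter. The member counts thus describe the fits and not the members alone. Of 20 calls, 13 held in every fit that left out 1 brain and 7 did not, and 12 held in every other alternative that tested them while 8 did not. Dim probes near the detection limit, such as those of Syt6, Sec22c and Arl5a in A/J and C10 congenic brains, give compressed differences.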

Other observations

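Genes with a symbol of the same families on chromosome 10 or X, not counted above, numbered 8 with a detected probe. On chromosome 10 these were Arl1, Rab21 and Syt1, and on X Ap1s2, Rab9, Snx12, Trappc2 and Vamp7. None of the 8 was called by limma in any comparison, and 1 (Trappc2, in C10 congenic minus B6) had an unadjusted p under 0.05. Of all named genes, 15.3%, 10.4% and 0.844% were called in B6 minus A/J, C10 congenic minus B6 and C10 congenic minus A/J. An unadjusted p under 0.05 was seen in 21.3% of them in C10 congenic minus B6. Log2 differences of C10 congenic minus A/J were -0.11 for Arl1, 0.06 for Rab21 and 0.09 for Syt1, the calcium sensor of fast transmitter release. Detected genes whose symbols fit but which do not act in membrane traffic by the rule numbered 12. Of them 3 were called in B6 minus A/J (25%, against 15.3% of all named genes) and 1 in C10 congenic minus B6 (8.33%, against 10.4%). In C10 congenic minus A/J 0 were called (against 0.844%), and 1 had an unadjusted p under 0.05 (against 15.2%). Snapc4, a subunit of the complex that transcribes small nuclear RNA genes, was called in both comparisons with B6, at a log2 difference of -0.55 in B6 minus A/J.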
